A study of Mus musculus with 12 samples.

Results

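Interleukins are secreted signals between cells, above all between blood cells, and this account covers 76 mouse genes that carry an interleukin or interleukin receptor symbol, measured in primary tumours of 4 related mammary carcinoma lines. The genes were taken by name: every symbol in the array's probe annotation that begins with Il and a digit, apart from Il7r and Il1r2, and with at least 3 probesets that match 1 gene. The annotation holds 79 such symbols, of which 2 were set aside by name and 1, Il28b, had too few probesets, and the 76 left stand among 15025 genes measured. They comprise 36 ligands, 32 receptor chains, 5 inhibitors or decoys, 2 chemokine receptors and 1 enzyme. Each was read by 3 to 34 probesets, with a median of 10. For 3 of them the symbol has since changed: Il8ra is now Cxcr1, Il8rb is Cxcr2 and Il28ra is Ifnlr1.

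The groups were tumours of the lines 4T1, 4T07, 168FARN and 67NR, with 3 arrays for each of the 4 lines and 12 arrays in all. The labels name no allele and no treatment in any group, and all tumours were grown from cells implanted into the mammary fat of BALB/c mice, all females and 3 months old, and taken out at a similar size. The lines descend from 1 mouse tumour, and in the literature 67NR stays local, 168FARN reaches lymph nodes, 4T07 seeds the lung without growing there and 4T1 forms full metastases. Each behaviour is carried by 1 line, so line and behaviour cannot be told apart. Nothing in the labels says that the 3 tumours of a line came from separate animals, so the p-values reflect differences among these samples alone, and that spread may be technical. The whole tumour was extracted, so fewer cells of a type and less RNA per cell cannot be told apart.

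Most interleukins bind paired receptor chains on the cell surface. Those of the IL-1 family, such as IL-1α, IL-1β, IL-33 and IL-18, act through receptors with a TIR domain, the adaptor MyD88 and NF-κB, and pair a ligand-binding chain with an accessory chain such as the one encoded by Il1rap. Most of the others act through Janus kinases and STAT factors, and share chains among them: the common gamma chain Il2rg for IL-2, IL-7, IL-15 and IL-21, gp130 encoded by Il6st for IL-6 and IL-11, and Il12rb1 for IL-12 and IL-23. In mammary tumours interleukins are made by carcinoma cells, stromal cells and infiltrating leukocytes, and IL-1 and IL-17 signals are known to draw neutrophils.

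Values are log2 signals, and a gene's level is the median of its probesets. As a background scale, the level that 5% of 335 olfactory receptor genes exceed was 5.08, these genes being mostly silent outside the nose, and a line mean under it is described here as in the background. Where 1 of a pair of lines is in the background, a fold is given as a lower bound, with each dim array set no lower than that level, and the adjusted p is that of the measured difference. By that scale 54 of the 76 genes were above background in at least 1 line and 22 were not. Array medians lay between 7.21 and 7.57. A gene is called where its adjusted p is under 0.05, in the moderated F-test of limma over the 4 lines or in 1 of the 6 pairs of lines, with adjustment over all genes.

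Among the 4 lines 36 of the 76 genes were called by the F-test, 47.4%, beside 42% of all genes tested. Of the ligands 14 of 36 were called, of the receptor chains 19 of 32, of the inhibitors 2 of 5 (Il1rn and Il13ra2), of the chemokine receptors 1 of 2 (Il8rb), and the enzyme Il4i1 was not. By family, the calls were 10 of 17 in the IL-1 family, 10 of 16 among the common gamma chain and IL-4 group, 6 of 13 among the gp130 and IL-12 group, 3 of 10 in the IL-10 family, 3 of 11 in the IL-17 family, 1 of 4 in the common beta chain group and 3 of the 5 genes outside them. The median spread between the highest and the lowest line mean was 0.70 for the interleukin genes and 0.56 for all genes.

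The pairs gave the directions. Against 67NR, 4T07 tumours had 21 interleukin genes higher, 27.6%, where 11% of all genes were higher, and 6 lower, 7.89%, where 12.7% of all genes were lower. In 4T1 against 67NR 13 genes were higher, 17.1% beside 9.38% of all genes, and 10 were lower, 13.2% beside 13%. In 168FARN against 67NR 10 were higher and 10 lower, 13.2% each, beside 13.5% and 11.2% of all genes, which is close to the background.

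The comparisons with 168FARN had similar counts. In 4T07 against 168FARN 21 genes were higher and 7 lower, 27.6% and 9.21%, where 11.4% and 16.8% of all genes were called. In 4T1 against 168FARN 17 were higher and 10 lower, 22.4% and 13.2%, where 11.9% and 19.3% of all genes were called. Between 4T1 and 4T07, 0 of the 76 were higher in 4T1 and 3 were lower (Il11, Il2rg and Il3), 3.95%, while 0.552% and 1.82% of all genes were called. Against 67NR the median change of the 76 genes was 0.07 in 4T1, 0.20 in 4T07 and 0.00 in 168FARN, where that of all genes was -0.04, -0.04 and 0.04. Against 168FARN it was 0.15 in 4T1 and 0.25 in 4T07, where that of all genes was -0.08 and -0.09, and in 4T1 against 4T07 it was -0.08, where that of all genes was close to 0. The comparisons with 67NR share its arrays, as the comparisons with 168FARN share theirs, so the counts are not independent of each other.

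**Figure D1:**
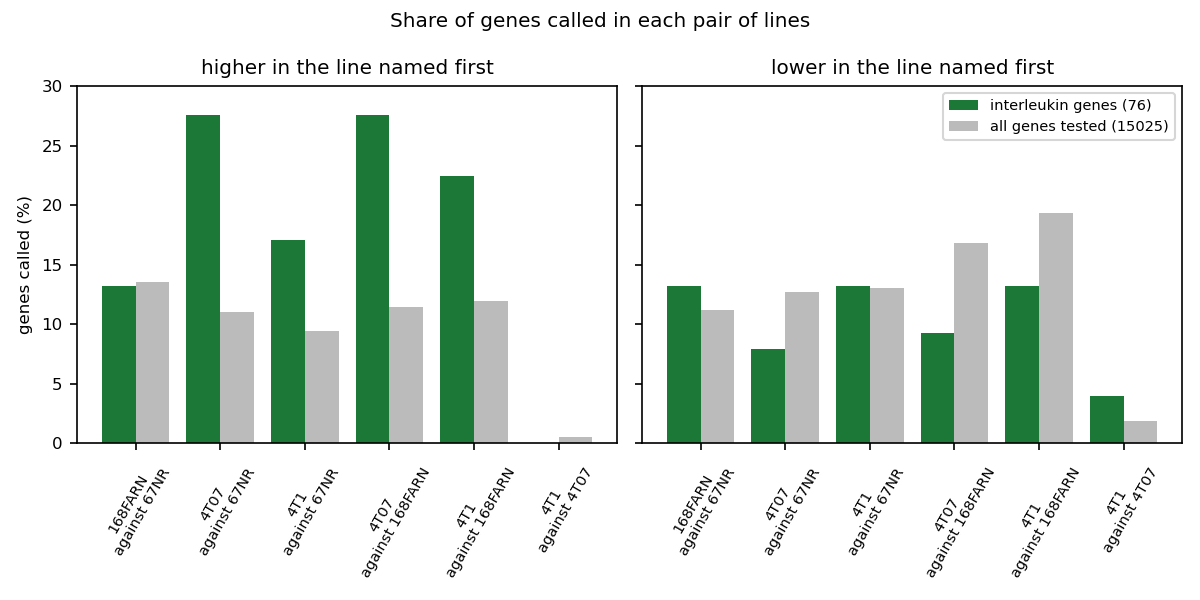
Bars give the percentage of genes called higher (left panel) and lower (right panel) in the line named first of each of the 6 pairs, for the 76 interleukin genes (green) and for all 15025 genes tested (grey). The green bars for higher reach 27.6% in 4T07 against 67NR and against 168FARN, where the grey bars are at 11% and 11.4%, and there is no green bar for higher in 4T1 against 4T07.

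**Figure D2:**
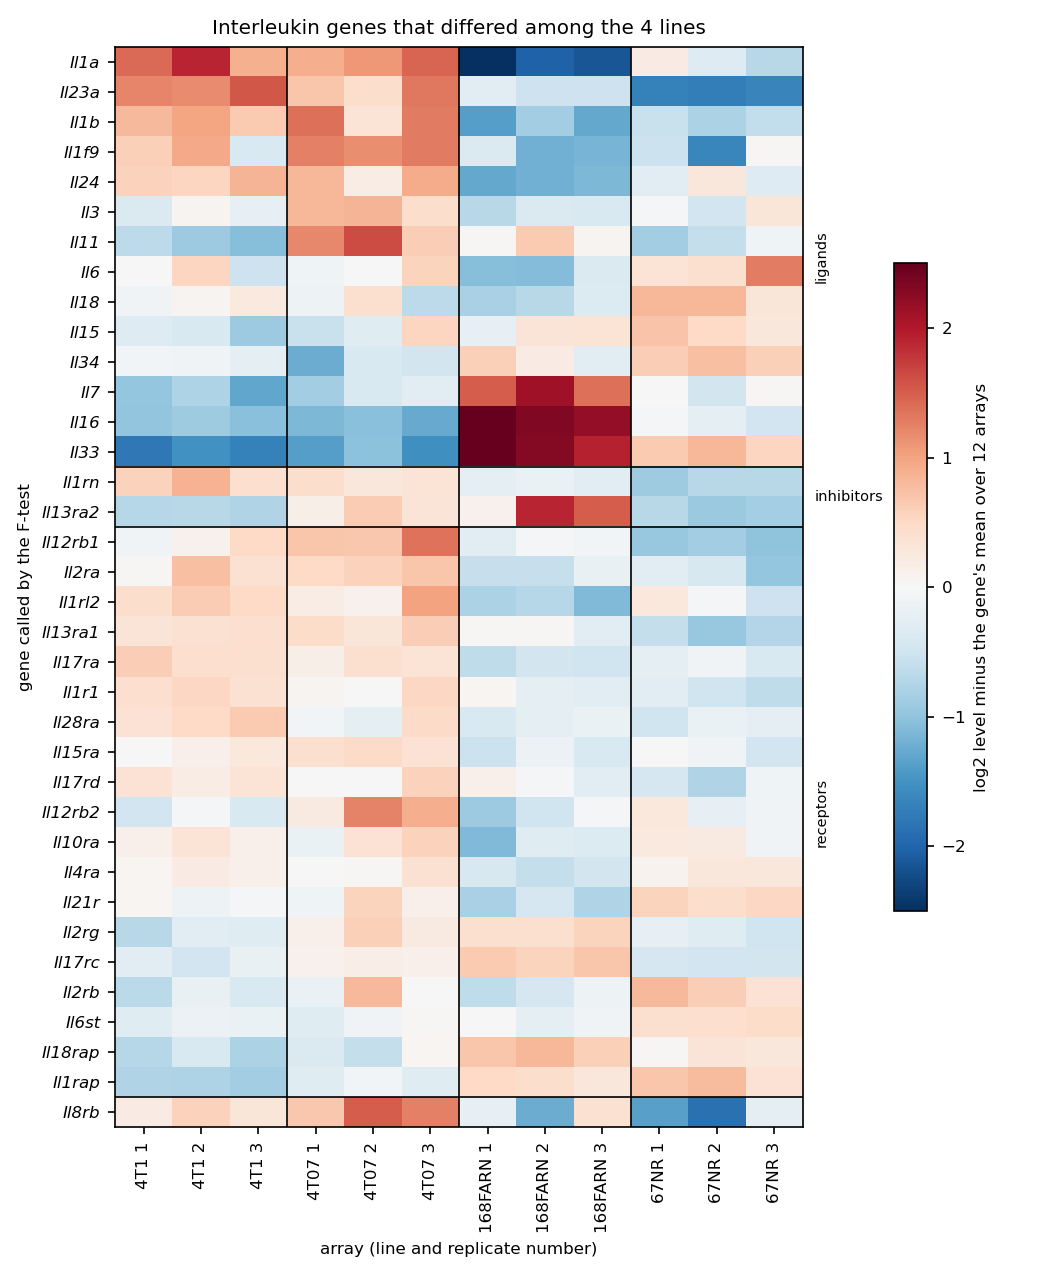
Colour gives, for each of the 36 interleukin genes called by the F-test (rows; ligands, inhibitors, receptor chains and, in the last row, the chemokine receptor Il8rb), the log2 level on each of the 12 arrays minus the gene's mean over the arrays, cut at 2.5 either way. The 3 arrays of 168FARN are bluest for Il1a and reddest for Il33, Il16 and Il7, and the arrays of 4T1 and 4T07 are red for Il1a, Il23a and Il1b.

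The IL-1 family held the widest contrasts. Il1a encodes IL-1α, an alarm signal kept in the cell and released on damage. It reached 7.32, 7.81 and 6.79 in 4T1 tumours and 6.82, 6.98 and 7.36 in 4T07 tumours, against 3.26, 3.88 and 3.76 in 168FARN tumours and 6.10, 5.58 and 5.20 in 67NR tumours. All arrays of 4T1 and 4T07 were above all of 67NR, and 168FARN lay in the background on each array. Il1a was at least 4.68-fold higher in 4T1 than in 168FARN (adjusted p = 7.79e-07), and the change in 4T1 minus 67NR was 1.68 ± 0.28 (SE, adjusted p = 7.44e-04).

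Its neighbour Il1b encodes IL-1β, the secreted form made chiefly by myeloid cells. The levels were 10.13, 10.30 and 9.97 in 4T1, 10.69, 9.65 and 10.61 in 4T07, 7.95, 8.45 and 8.04 in 168FARN, and 8.75, 8.52 and 8.70 in 67NR. Both 4T lines were above both other lines with no overlap, by 3.96-fold in 4T1 against 168FARN (adjusted p = 4.62e-05) and 2.78-fold in 4T1 against 67NR (adjusted p = 6.70e-04). Between 168FARN and 67NR the difference was -0.51 ± 0.24 (SE, adjusted p = 0.152). Il1f9, which encodes an IL-36 cytokine of epithelia, had 6.73, 7.09 and 5.75 in 4T1, 7.38, 7.28 and 7.43 in 4T07, 5.77, 4.92 and 4.96 in 168FARN and 5.60, 4.51 and 6.15 in 67NR. Here 4T07 was above every array of the other lines, by 4.43-fold against 168FARN (adjusted p = 0.00129) and 3.85-fold against 67NR (adjusted p = 0.00291), while 4T1 overlapped both 168FARN and 67NR. With array 1 as the only one of 168FARN, the Il1f9 difference between 4T07 and 168FARN was 1.60 with an adjusted p of 0.0886.

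Il33 had the largest spread of all 76 genes, and in the other direction. It encodes IL-33, a nuclear cytokine of stromal and epithelial cells that acts on mast cells, type 2 lymphocytes and regulatory T cells. Its levels were 7.63, 7.91 and 7.72 in 4T1 and 8.04, 8.39 and 7.88 in 4T07, against 12.13, 11.71 and 11.34 in 168FARN and 10.06, 10.25 and 9.95 in 67NR. The 4T lines overlapped each other and lay below 67NR, which lay below 168FARN. Il33 was 15.7-fold lower in 4T1 than in 168FARN (-3.97 ± 0.20, SE, adjusted p = 2.23e-08), 5.04-fold lower in 4T1 than in 67NR (adjusted p = 2.52e-06) and 3.11-fold higher in 168FARN than in 67NR (adjusted p = 7.21e-05). Il18, which encodes a cytokine processed like IL-1β, was lowest in 168FARN, with 5.42, 5.53 and 5.89 against 7.06, 7.05 and 6.52 in 67NR, a change of -1.26 ± 0.24 (SE, adjusted p = 0.00218). In 4T1 it was 6.14, 6.30 and 6.48, between 168FARN and 67NR, and the 4T07 arrays, at 6.11, 6.62 and 5.58, overlapped all the other lines.

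The inhibitor of the pathway was highest in both 4T lines. Il1rn encodes the IL-1 receptor antagonist, which occupies the receptor without signalling. It stood at 8.44, 8.73 and 8.28 in 4T1, 8.31, 8.14 and 8.21 in 4T07, 7.65, 7.71 and 7.58 in 168FARN and 6.97, 7.18 and 7.18 in 67NR. The 4T lines overlapped each other and nothing else, and the difference from 67NR was 1.37 ± 0.15 in 4T1 (SE, adjusted p = 1.55e-05) and 1.11 ± 0.15 in 4T07 (SE, adjusted p = 9.41e-05). Il1rn was also higher in 168FARN than in 67NR, by 0.53 (adjusted p = 0.0162), where Il1a was lower (adjusted p = 2.20e-04). That call for Il1rn was lost without 67NR array 1 (adjusted p = 0.0748) or 168FARN array 2 (adjusted p = 0.0516).

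The receptor chains of the family did not all go one way. Il1r1, the signalling receptor of IL-1, rose 1.89-fold in 4T1 against 67NR (9.15, 9.27 and 9.12 against 8.46, 8.23 and 8.10, adjusted p = 0.00141). Il1rl2, the IL-36 receptor, was lowest in 168FARN, with 5.74, 5.83 and 5.44 against 6.97, 7.17 and 7.02 in 4T1 and 6.72, 6.64 and 7.54 in 4T07, and its change in 4T1 minus 168FARN was 1.39 ± 0.25 (SE, adjusted p = 8.16e-04). Its 67NR levels, between 6.0 and 6.80, overlapped those of 4T07.

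Il1rap, the accessory chain shared by the receptors of IL-1, IL-33 and IL-36, ran against Il1a and Il1b. It was 6.94, 6.92 and 6.84 in 4T1, 7.39, 7.64 and 7.39 in 4T07, 8.20, 8.13 and 7.98 in 168FARN and 8.39, 8.49 and 8.06 in 67NR. The 4T1 arrays were below all others, and the change was -1.41 ± 0.15 in 4T1 minus 67NR (SE, adjusted p = 1.49e-05) and -0.84 ± 0.15 in 4T07 minus 67NR (SE, adjusted p = 0.00104). Il18rap, the accessory chain of the IL-18 receptor, was at 7.70, 8.04 and 7.62 in 4T1 and 8.05, 7.81 and 8.45 in 4T07, against 9.11, 9.23 and 9.01 in 168FARN, and 8.45, 8.74 and 8.70 in 67NR. It fell 2.52-fold in 4T1 against 168FARN (adjusted p = 1.14e-04) and 1.80-fold in 4T1 against 67NR (adjusted p = 0.00431). In 4T07 it fell 2.02-fold against 168FARN (adjusted p = 0.00105), while its difference from 67NR was -0.53, with overlap and an adjusted p of 0.0525. The other genes of the family that were above background, Il18r1 and Il18bp, were not called by the F-test (adjusted p = 0.0607 and 0.392).

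**Figure D3:**
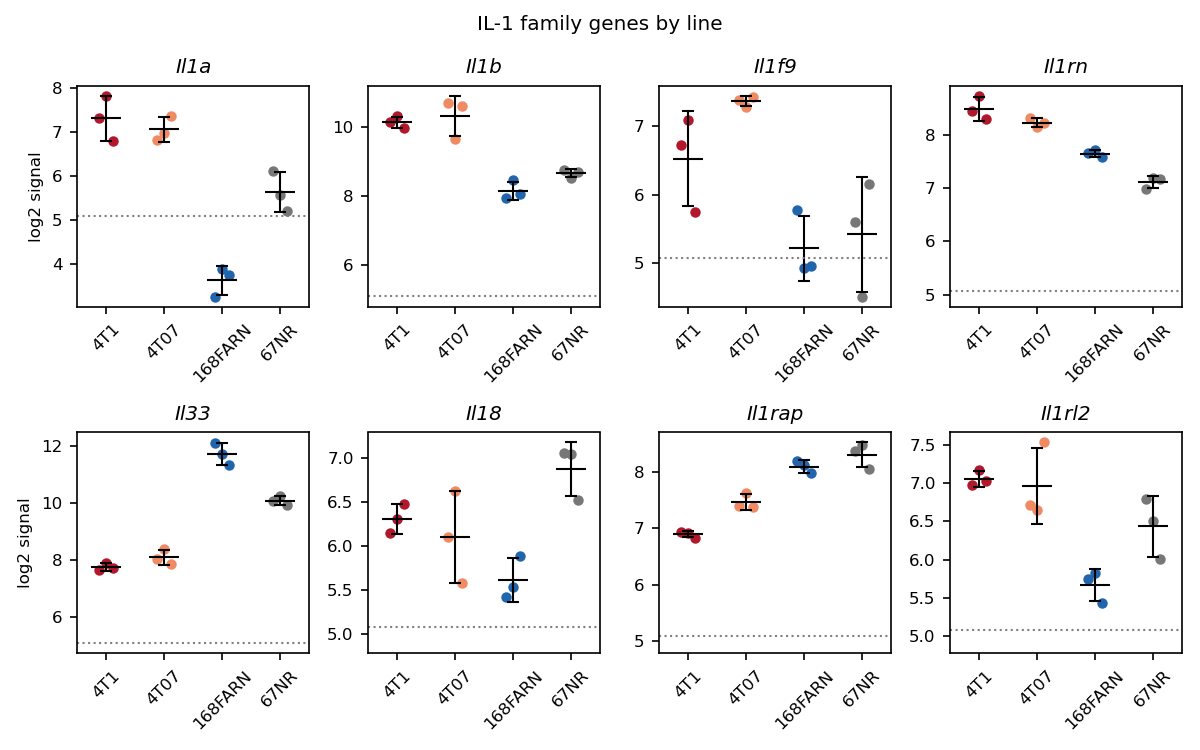
Points are the log2 levels of 8 IL-1 family genes on each array of 4T1, 4T07, 168FARN and 67NR, with the mean and SD of the 3 arrays in black and the background level of 5.08 as a dotted line. Il1a and Il1b are high in both 4T lines, Il33 is high in 168FARN (11.34 to 12.13) and low in both 4T lines, and Il1rap is lowest in 4T1.

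Promoter windows of 300 bases, 250 before and 50 after the start, were read from RefSeq (GRCm38.p6) for the members that set a line apart or were called in the same direction in both 4T lines against 67NR. Of 18 such genes 12 had an entry, with 18 windows because some genes have several starts. Il23a, Il7 and Il24, which each set a line apart, were among those without an entry. A script searched both strands for the NF-κB consensus, for the STAT motif TTCNNNGAA and for the AP-1 motif TGANTCA. NF-κB matches were in 3 of the 18 windows (16.7%, beside 8.46% of 32851 windows in the table), AP-1 matches in 3 (16.7%, beside 7.81%) and STAT matches in 0 (beside 8.3%). Some of these windows are shown, with matched letters in capitals. Il1a (chr2:129309923-129310222, minus strand) has an AP-1 match at 12 bases before the start. Il1b (chr2:129371090-129371389, minus strand) and the first Il33 start (chr19:29924863-29925162, plus strand) have none of the 3 motifs. A pair of Il16 starts is also shown. The first Il16 start (chr7:83735490-83735789, minus strand) has an AP-1 match 18 bases before it, and the last of its 3 starts (chr7:83655446-83655745, minus strand) has overlapping NF-κB matches 49 and 48 bases before it. A match describes the letters and is not a site shown to be bound.
Il1a: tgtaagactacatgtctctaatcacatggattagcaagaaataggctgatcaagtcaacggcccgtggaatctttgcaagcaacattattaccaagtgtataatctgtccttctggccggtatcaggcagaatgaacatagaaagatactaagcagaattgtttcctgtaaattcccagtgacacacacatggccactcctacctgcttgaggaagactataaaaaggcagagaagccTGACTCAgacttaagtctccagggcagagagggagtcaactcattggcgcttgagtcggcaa
Il1b: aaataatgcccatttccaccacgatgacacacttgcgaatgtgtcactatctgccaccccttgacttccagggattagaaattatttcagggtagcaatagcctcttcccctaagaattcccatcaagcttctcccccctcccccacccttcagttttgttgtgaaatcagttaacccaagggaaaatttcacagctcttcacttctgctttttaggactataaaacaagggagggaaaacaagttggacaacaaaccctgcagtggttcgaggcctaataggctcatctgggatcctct
Il33, first start: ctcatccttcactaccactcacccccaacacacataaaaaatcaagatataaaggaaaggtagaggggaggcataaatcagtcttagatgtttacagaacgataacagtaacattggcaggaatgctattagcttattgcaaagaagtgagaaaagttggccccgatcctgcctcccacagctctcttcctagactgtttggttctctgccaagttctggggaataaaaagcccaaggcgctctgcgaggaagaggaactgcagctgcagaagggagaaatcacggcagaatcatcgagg
Il16, first start: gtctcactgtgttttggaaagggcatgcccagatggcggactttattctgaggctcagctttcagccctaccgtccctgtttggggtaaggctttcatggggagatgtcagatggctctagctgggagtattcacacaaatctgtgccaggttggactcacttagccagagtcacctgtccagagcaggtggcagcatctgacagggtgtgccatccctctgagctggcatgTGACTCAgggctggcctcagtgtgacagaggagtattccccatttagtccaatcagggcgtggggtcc
Il16, last start: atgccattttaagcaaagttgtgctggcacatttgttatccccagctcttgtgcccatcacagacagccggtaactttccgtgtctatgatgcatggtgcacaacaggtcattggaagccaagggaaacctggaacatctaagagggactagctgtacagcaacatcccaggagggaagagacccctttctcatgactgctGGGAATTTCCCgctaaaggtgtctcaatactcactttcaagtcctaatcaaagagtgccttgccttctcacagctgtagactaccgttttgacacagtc

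In the gp130 and IL-12 group, Il23a set 67NR apart from the other 3 lines. It encodes the p19 subunit of IL-23, which sustains IL-17-producing lymphocytes. Levels were 7.91, 7.85 and 8.23 in 4T1, 7.38, 7.12 and 8.00 in 4T07 and 6.39, 6.15 and 6.16 in 168FARN, against 4.98, 4.95 and 5.03 in 67NR. All 67NR arrays were in the background, the 168FARN arrays came next, and 4T1 and 4T07 overlapped at the top. Il23a was at least 7.56-fold higher in 4T1 than in 67NR (adjusted p = 2.97e-07), and 3.39-fold higher in 4T1 than in 168FARN (adjusted p = 2.50e-05). Its partner subunit Il12b was not called by the F-test (adjusted p = 0.0637), with means of 5.52 in 4T1, 5.66 in 4T07, 6.18 in 168FARN and 6.02 in 67NR. In 4T1 minus 168FARN Il12b was called with a change of -0.66 (adjusted p = 0.0307), where Il23a was higher, but the call was lost without 168FARN array 2 or 3 or any 1 array of 4T1, at adjusted p values of 0.0638 to 0.104. Il23r, the specific receptor chain, was in the background in all lines.

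Il12rb1, the chain shared by the receptors of IL-12 and IL-23, also had its lowest levels in 67NR. It was 6.94, 7.13 and 7.52 in 4T1, 7.73, 7.70 and 8.38 in 4T07, 6.74, 6.97 and 6.95 in 168FARN and 6.09, 6.16 and 6.03 in 67NR. The 4T07 arrays were above all others, 3.58-fold higher than 67NR (adjusted p = 1.95e-05), and 4T1 overlapped 168FARN. Il12rb2, the second chain of the IL-12 receptor, was 5.59, 6.61 and 6.28 in 4T07 against 4.47, 4.88 and 5.35 in 168FARN, whose mean was in the background, and so at least 1.98-fold higher (adjusted p = 0.00335). In 4T1 it was 4.90, 5.32 and 5.00 and in 67NR 5.63, 5.18 and 5.30, close to the background level.

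Il11 gave the largest difference between the 4T lines. It encodes IL-11, a cytokine of the IL-6 type that signals through gp130. It was 6.35, 6.10 and 5.95 in 4T1, 8.21, 8.64 and 7.63 in 4T07, 7.05, 7.65 and 7.07 in 168FARN and 6.13, 6.42 and 6.91 in 67NR. All 4T07 arrays lay above all those of 4T1 and 67NR, and 4T1 was 4.07-fold lower than 4T07 (-2.02 ± 0.27, SE, adjusted p = 0.00129). Il11 was also 3.19-fold higher in 4T07 than in 67NR (adjusted p = 4.80e-04) and 2.18-fold lower in 4T1 than in 168FARN (adjusted p = 0.00602).

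Il6st, which encodes gp130 itself, was highest in 67NR. It was 10.69, 10.86 and 10.84 in 4T1, 10.70, 10.90 and 11.02 in 4T07 and 11.01, 10.77 and 10.91 in 168FARN, below the 11.39, 11.41 and 11.46 of 67NR in every array. The change in 4T1 minus 67NR was -0.62 ± 0.14 (SE, adjusted p = 0.00468). Il6 was called by the F-test (adjusted p = 0.0101) with all line means in the background, at 4.26 in 4T1, 4.40 in 4T07, 3.41 in 168FARN and 4.93 in 67NR.

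Among the genes of the common gamma chain and IL-4 group, Il7 set 168FARN apart. IL-7 is a stromal cytokine that keeps T and B lymphocyte precursors alive. Its levels were 6.28, 6.49 and 5.96 in 4T1 and 6.39, 6.86 and 6.96 in 4T07, against 8.77, 9.38 and 8.63 in 168FARN and 7.24, 6.79 and 7.27 in 67NR. The 168FARN arrays were above all others, 3.55-fold over 67NR (adjusted p = 9.68e-05), and Il7 was 6.42-fold lower in 4T1 than in 168FARN (adjusted p = 2.21e-06). Il7 also fell in 4T1 against 67NR by 0.86 on the log2 scale (adjusted p = 0.0175), a call that was lost without array 1 or 3 of 67NR or array 3 of 4T1, at adjusted p values of 0.0647, 0.0633 and 0.0811. Il15, which sustains NK cells and memory T cells, was 6.16, 6.11 and 5.59 in 4T1 against 7.21, 6.98 and 6.78 in 67NR, a fall of 1.04 (adjusted p = 0.0137) that missed the threshold without 67NR array 1 (adjusted p = 0.0562) or 4T1 array 3 (adjusted p = 0.0675).

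The receptor chains of this group differed in pattern. Il2ra, the alpha chain that marks activated and regulatory T cells, was 5.56, 6.29 and 5.92 in 4T1 and 6.04, 6.11 and 6.22 in 4T07, against 5.26, 5.13 and 4.56 in 67NR, whose mean was in the background. It was at least 1.95-fold higher in 4T07 (adjusted p = 0.00182) and at least 1.70-fold higher in 4T1 (adjusted p = 0.00691) than in 67NR. Il2rb, the beta chain of the IL-2 and IL-15 receptors, was instead high in 67NR, with 8.08, 8.56 and 8.35 in 4T1, 8.58, 9.55 and 8.74 in 4T07 and 8.11, 8.32 and 8.61 in 168FARN against 9.54, 9.35 and 9.11 in 67NR. It fell 2.01-fold in 4T1 (adjusted p = 0.00872) and 1.99-fold in 168FARN (adjusted p = 0.00898) against 67NR, and 4T07 overlapped 67NR.

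Il2rg, the common gamma chain, was 8.85, 9.28 and 9.25 in 4T1, 9.68, 10.15 and 9.77 in 4T07, 9.96, 9.95 and 10.10 in 168FARN and 9.34, 9.26 and 9.06 in 67NR. It was 1.72-fold higher in 168FARN than in 67NR (adjusted p = 0.00436) and 1.83-fold lower in 4T1 than in 168FARN (adjusted p = 0.00152). Its call in 4T1 against 4T07 (-0.74, adjusted p = 0.0366) was lost on leaving out any of 7 arrays: 67NR 1 or 2, 168FARN 2, 4T07 2, or any of 4T1, with adjusted p values of 0.0511 to 0.197. Il21r, the IL-21 receptor of lymphocytes, was lowest in 168FARN, with 6.20, 6.61 and 6.27 against 7.57, 7.47 and 7.54 in 67NR, 2.24-fold apart (adjusted p = 3.56e-04). Il4ra, the signalling chain for IL-4 and IL-13, was also lowest there, 8.99, 8.80 and 8.93 against 9.48, 9.66 and 9.66 in 67NR (adjusted p = 0.00328).

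The receptors of IL-13 had their highest means in different lines, though both were called higher than 67NR in 168FARN and 4T07. Il13ra1, the signalling chain, was 10.39, 10.46 and 10.49 in 4T1, 10.54, 10.38 and 10.69 in 4T07, 10.11, 10.10 and 9.79 in 168FARN and 9.49, 9.12 and 9.33 in 67NR. Its 67NR arrays lay below all the others. The rise over 67NR was 2.33-fold in 4T07 (adjusted p = 6.09e-05), 2.19-fold in 4T1 (adjusted p = 1.18e-04) and 1.61-fold in 168FARN (adjusted p = 0.00498). Il13ra2, which binds IL-13 with no known Janus kinase signal and is often called a decoy, was 3.75, 3.77 and 3.70 in 4T1, 4.60, 5.08 and 4.78 in 4T07, 4.57, 6.35 and 5.98 in 168FARN and 3.76, 3.53 and 3.6 in 67NR. Only 168FARN had a mean above background, and its array 1 was in the background. In 4T07 Il13ra2 was also called higher than in 67NR (adjusted p = 0.0201), with both means in the background. Il13ra2 was at least 1.47-fold higher in 168FARN than in 67NR (adjusted p = 7.69e-04), and with array 1 as the only one of 168FARN both lines were in the background.

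In those same arrays the skeletal muscle markers stood out: the mean level of 13 of them was 7.84 and 8.70 in 168FARN arrays 2 and 3, against 5.42 in array 1 and 5.30 to 6.25 over the other lines. The part of muscle RNA in the result for Il13ra2 was not tested further than by that value. With array 1 as the only one of 168FARN, 14 of the 20 calls in 168FARN against 67NR were kept, among them Il33, Il16 and Il7 at 2.04, 2.85 and 1.67. The 6 lost were Il12rb1, Il1rl2, Il1rn, Il2rg, Il4ra and Il6st, at adjusted p values of 0.0855 to 0.258. Of the calls against 168FARN, 19 of 28 were kept in 4T07 and 16 of 27 in 4T1, and those lost include Il8rb in 4T07 (adjusted p = 0.104) and Il11 and Il12b in 4T1 (adjusted p = 0.129 and 0.387). Of the 3 calls in 4T1 against 4T07, Il11 alone was kept there.

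**Figure D4:**
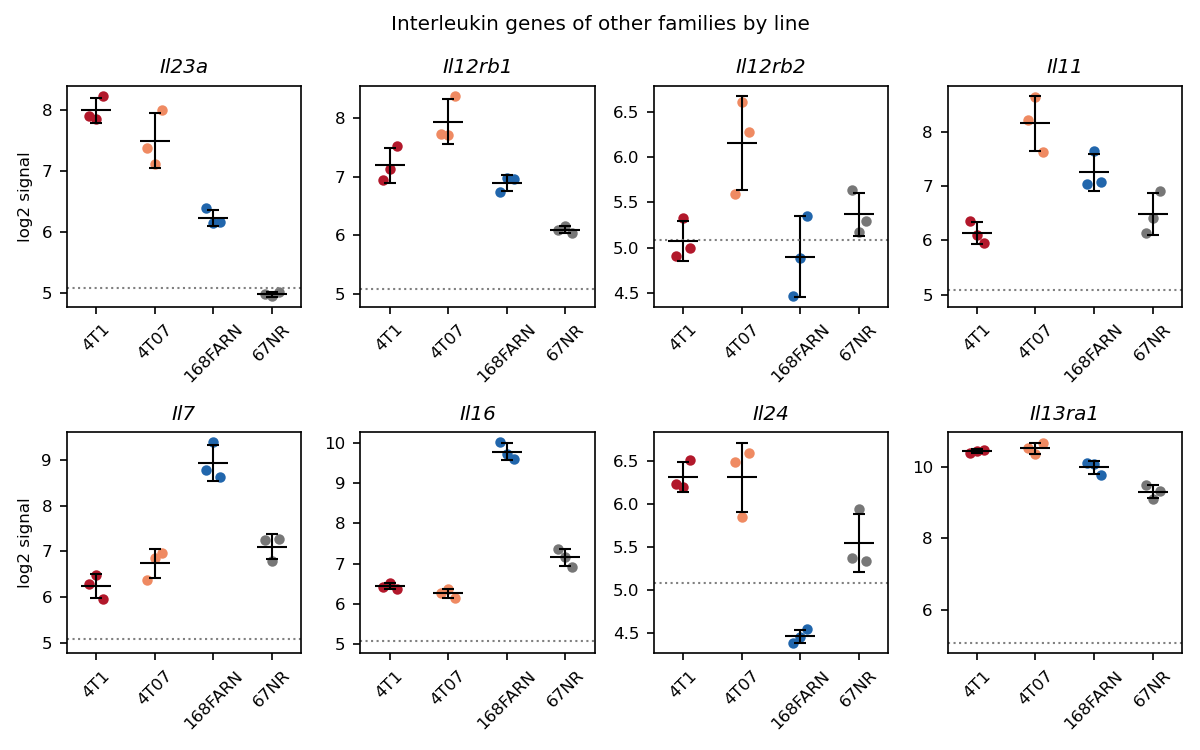
Points are the log2 levels of 8 interleukin genes outside the IL-1 family on each array of 4T1, 4T07, 168FARN and 67NR, with the mean and SD of the 3 arrays in black and the background level of 5.08 as a dotted line. Il23a lies at 4.95 to 5.03 in 67NR and at 7.85 to 8.23 in 4T1, Il11 is high in 4T07, and Il7 and Il16 are high in 168FARN, where Il24 is in the background.

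In the IL-10 family, Il24 set 168FARN apart. Il24 encodes a cytokine that acts on epithelial cells through the IL-20 receptors. The levels were 6.24, 6.20 and 6.51 in 4T1, 6.50, 5.85 and 6.59 in 4T07, 4.39, 4.45 and 4.54 in 168FARN and 5.37, 5.94 and 5.34 in 67NR. Only the 168FARN arrays were all in the background, at least 2.36-fold below 4T1 (adjusted p = 2.68e-05) and at least 1.39-fold below 67NR (adjusted p = 0.00234). The genes beside it on chromosome 1, Il10, Il19 and Il20, were in the background in every line. Il10ra, the IL-10 receptor chain of leukocytes, was called by the F-test (adjusted p = 0.0301) with means of 8.45 in 4T1, 8.51 in 4T07, 7.68 in 168FARN and 8.39 in 67NR. Il28ra (Ifnlr1), the interferon lambda receptor chain, was 5.45, 5.59 and 5.75 in 4T1 against 4.59, 4.92 and 4.85 in 67NR, which was in the background, and so at least 1.43-fold higher (adjusted p = 0.00604).

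In the IL-17 family the calls were on receptors. Il17ra, the chain common to most receptors of the family, was 9.33, 9.15 and 9.13 in 4T1 and 8.86, 9.11 and 9.05 in 4T07, above the 8.08, 8.26 and 8.22 of 168FARN and the 8.48, 8.63 and 8.34 of 67NR in every array. It was 2.02-fold higher in 4T1 than in 168FARN (adjusted p = 1.20e-04) and 1.65-fold higher than in 67NR (adjusted p = 0.00211). Its partner Il17rc was instead highest in 168FARN, 9.52, 9.41 and 9.55 against 8.44, 8.38 and 8.40 in 67NR, 2.12-fold (adjusted p = 4.98e-05), and 1.94-fold lower in 4T1 than in 168FARN (adjusted p = 9.55e-05). Also called was Il17rd, a chain that curbs fibroblast growth factor signals, whose means were 6.28 in 4T1, 6.17 in 4T07, 5.92 in 168FARN and 5.56 in 67NR (F-test adjusted p = 0.0382). The ligands Il17a, Il17b, Il17c, Il17d, Il17f and Il25 were not called, with F-test adjusted p values from 0.301 (Il17c) to 0.952 (Il25).

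Outside these families Il16 was the most distinct. IL-16 is cut from a larger PDZ-domain protein and attracts CD4+ cells. Levels were 6.43, 6.52 and 6.37 in 4T1 and 6.28, 6.37 and 6.15 in 4T07, against 10.01, 9.73 and 9.60 in 168FARN and 7.37, 7.17 and 6.93 in 67NR. The 168FARN arrays were more than 2 units above every other array. Il16 was 11.4-fold lower in 4T07 than in 168FARN (-3.51 ± 0.16, SE, adjusted p = 8.73e-09), 10.1-fold lower in 4T1 than in 168FARN (adjusted p = 1.07e-08) and 6.17-fold higher in 168FARN than in 67NR (adjusted p = 1.20e-07).

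Il34, a ligand of the receptor of macrophage colony-stimulating factor, was highest in 67NR. It was 8.64, 8.62 and 8.49 in 4T1, 7.46, 8.32 and 8.24 in 4T07, 9.30, 8.91 and 8.45 in 168FARN and 9.32, 9.47 and 9.31 in 67NR. The 4T07 arrays were below those of every other line, 2.56-fold below 67NR (adjusted p = 9.73e-04). The call in 4T1 against 67NR (-0.78, adjusted p = 0.0305) was lost without any 1 of the 3 arrays of 4T1 or the 3 of 67NR, at adjusted p values of 0.06 to 0.0957.

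Il8rb (Cxcr2) is the main chemokine receptor of neutrophils. It was 6.71, 7.08 and 6.80 in 4T1, 7.17, 8.01 and 7.76 in 4T07, 6.30, 5.26 and 6.87 in 168FARN and 5.14, 4.64 and 6.26 in 67NR. The 4T07 arrays were above all others, 4.92-fold over 67NR (adjusted p = 0.00127). The call in 4T1 against 67NR (1.52, adjusted p = 0.0188) was lost without 67NR array 1 (adjusted p = 0.0629), 67NR array 2 (0.0885) or 4T1 array 2 (0.0629), and that in 4T07 against 168FARN (1.5, adjusted p = 0.016) without 168FARN array 2 (0.0769) or 4T07 array 2 (0.0602). Il8ra (Cxcr1) was not called by the F-test (adjusted p = 0.742), with means of 6.08 in 4T1, 5.93 in 4T07, 5.57 in 168FARN and 5.69 in 67NR.

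A line was set apart by a gene that was called against all 3 others, always on the same side and by at least 1 on the log2 scale. That held for 6 of the 76 genes: Il33, Il16 and Il7 higher and Il1a and Il24 lower in 168FARN, and Il23a lower in 67NR. Of all genes, 5.62% set at least 1 line apart, with 2.8% for 168FARN and 2.19% for 67NR. 168FARN was thus also the line set apart by the most genes of the array. For Il1a and Il24 the step from 67NR down to 168FARN is at least 0.55 and 0.47 when the background level is taken as the floor, so that its full size rests on values in the background. No member set 4T1 or 4T07 apart, where 0.359% and 0.506% of all genes did, shares so small that 0 of 76 is close to the background.

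Neighbouring members were compared by their order in RefSeq. Of the receptor cluster on chromosome 1 (Il1r1, Il1rl2, Il18r1 and Il18rap), 3 of 4 were called by the F-test, as were 42% of all genes, with Il1r1 up and Il18rap down in 4T1 against 67NR. Il1a and Il1b, side by side on chromosome 2, were both called, as were Il2ra and Il15ra on chromosome 2 and Il4ra and Il21r on chromosome 7. Of the other IL-1 cluster on chromosome 2 (Il1f8, Il1f9, Il1f6, Il1f5, Il1f10 and Il1rn), 2 of 6 were called, Il1f9 and Il1rn, and the other 4 were in the background. None of Il4, Il13 and Il5 on chromosome 11 was called, nor were the pairs Il17a and Il17f, Il22ra2 and Il20ra, or Il2 and Il21. In other groups only 1 gene was called: Il8rb beside Il8ra, Il6st beside Il31ra, Il28ra beside Il22ra1 and Il12rb2 beside Il23r. The same held for Il17rc beside Il17re, and for Il24 beside Il20, Il19 and Il10.

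The 22 genes in the background in every line include the T helper ligands Il2, Il4, Il5, Il9, Il10 and Il21, the cytokines Il3, Il6, Il19, Il20 and Il31, and the receptors Il5ra, Il20ra, Il23r and Il31ra. Among them 2 were called by the F-test, Il3 and Il6. At this signal no expression in these tumours can be told from background, which does not show that the genes are silent in every cell.

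Exon by exon, the deposited probesets allow a test of whether 1 stretch of a gene changed differently from the rest. After filters on dim probesets and genes, 276 probesets of 20 members entered limma's diffSplice test, and 31 in 7 members were called in at least 1 pair, 19 of them in Il16, 4 in Il1rn and 2 each in Il33, Il34 and Il17rc, with 1 each in Il18rap and Il1rap. Over all genes 2.29% of 110320 probesets were called. By the splicing index too, 17 probesets in 4 members were called, 13 in Il16, 2 in Il1rn and 1 each in Il33 and Il34, where 0.992% of all probesets were called by both. Most of these calls were in Il16, which passed the gene filter only with every array of 168FARN, where it is high. The member counts beside those shares are therefore not a result about the members as a group.

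The probesets of Il16 changed by unequal amounts. All 29 of its probesets were lower in 4T1 than in 168FARN, by -5.22 to -0.34 on the log2 scale. The smallest fall was that of probeset 5550358, which was dim in every line (5.26 to 5.94, where 5.44 was needed to enter the test). Of those called in that pair, 7 fell further than the rest of the gene, with means of 4.81 to 6.87 in 4T1 against 9.93 to 11.47 in 168FARN. The other 9 fell less, among them probesets 5159796, 5297221 and 4589202, at 8.10, 8.01 and 8.16 in 4T1, against 9.79, 9.68 and 9.74 in 168FARN. The mean level of Il16 over all arrays, 7.41, was barely over the 7.39 that a gene needed to enter the test. Without any 1 of the 168FARN arrays Il16 dropped out, and the count of called probesets was 13, 12 and 12 without array 1, 2 and 3. RefSeq gives Il16 3 starts in the promoter table, but no genome or exon positions of the probesets were used here, so the probesets were not placed on transcripts.

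**Figure D5:**
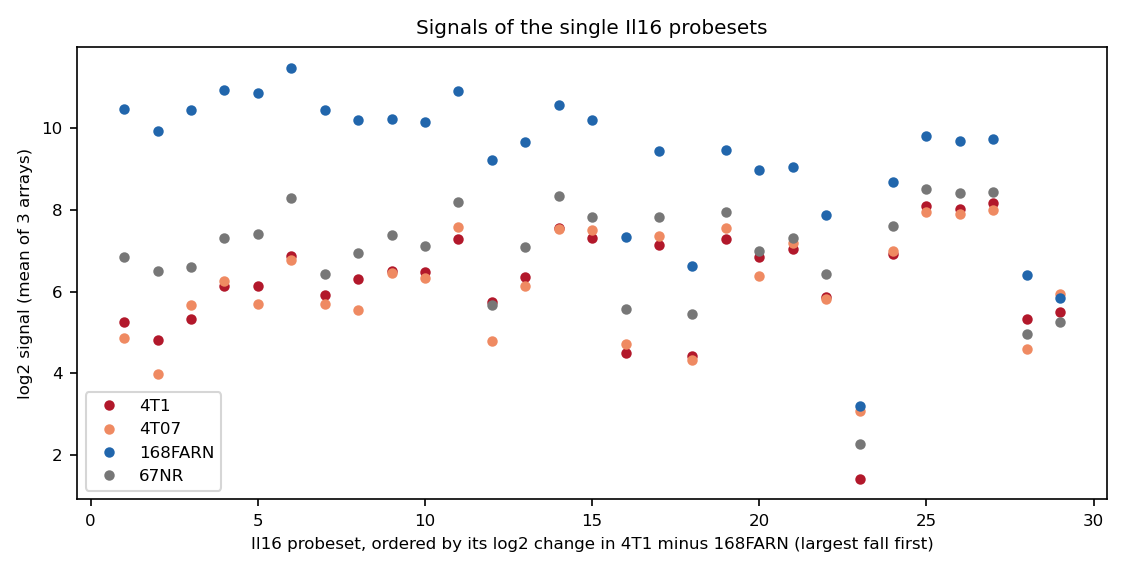
Points are the mean log2 signals over 3 arrays of the 29 Il16 probesets in 4T1, 4T07, 168FARN and 67NR, ordered from the largest to the smallest fall in 4T1 minus 168FARN. By that ordering the gap between 4T1 and 168FARN narrows along the axis, from -5.22 at the left to -0.34 at the right. The axis does not give positions along the gene.

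Of the 4 called probesets of Il1rn, the pair that the splicing index also called, 5256551 and 4923154, had means of 5.86 to 6.25 in every line, close to the 5.44 needed to enter the test, so no difference within the gene is read from them. In Il33 the probeset that changed least was 5142290, at -2.78 in 4T1 minus 168FARN, where the gene changed by -3.97 (relative change 1.34, adjusted p = 2.78e-04). Its other called probeset, 5017403, fell further in that pair, at -4.97 (relative change -1.12, adjusted p = 0.00419), and was not called by the splicing index. All 9 probesets of Il33 were lower in 4T1 than in 168FARN, and they were not placed on transcripts. In Il34 probeset 4647777 was at 8.28 in 4T1, 8.28 in 4T07, 8.22 in 168FARN and 8.05 in 67NR. In 4T07 minus 67NR the gene fell by 1.36 (relative change 1.51, adjusted p = 8.89e-04). As that probeset was nearly flat over all lines, no difference within the gene is read from it.

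The genes that carry the interleukin signal inward were read from lists of pathway members. For each list the shares to set its counts against are the 42% of all genes called by the F-test and, against 67NR, the 9.38% of all genes higher and 13% lower in 4T1, 11% and 12.7% in 4T07, and 13.5% and 11.2% in 168FARN. Of 18 measured Janus kinases, STAT factors and their brakes, 13 were called by the F-test, 72.2%. Against 67NR, 5 were higher and 4 lower in 4T1, 5 and 4 in 4T07, and 1 and 6 in 168FARN. The list's median change against 67NR was -0.09 in 4T1, 0.01 in 4T07 and -0.21 in 168FARN. Jak2, the kinase of many cytokine receptors, was 10.30, 10.36 and 10.29 in 4T1 and 9.87, 9.36 and 10.56 in 4T07, against 8.36, 8.49 and 8.86 in 168FARN and 8.93, 8.64 and 8.83 in 67NR, a change of 1.52 ± 0.24 in 4T1 minus 67NR (SE, adjusted p = 5.37e-04).

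Jak3, the kinase bound to the common gamma chain, rose by 1.45 ± 0.14 in 4T1 against 67NR (SE, adjusted p = 7.36e-06). Cish, a brake induced by STAT5, was 1.65 ± 0.21 higher in 4T1 than in 168FARN (SE, adjusted p = 5.27e-05), and Stat2 was 1.28 ± 0.15 higher in 168FARN than in 67NR (SE, adjusted p = 6.27e-05), where Socs1, a brake on Janus kinases, changed by -1.0. Of 19 measured genes of IL-1 and TIR signalling, 8 were called by the F-test, 42.1%, the same share as among all genes. Against 67NR, 3 were higher and 3 lower in 4T1, 5 and 2 in 4T07, and 2 and 4 in 168FARN. Tnfaip3, which encodes the NF-κB inhibitor A20, was 8.43, 8.73 and 8.82 in 4T1, 8.69, 8.42 and 9.18 in 4T07, 7.21, 7.30 and 7.35 in 168FARN and 7.53, 7.08 and 7.04 in 67NR, with no overlap between the 4T lines and the others (1.44 ± 0.20 in 4T1 minus 67NR, SE, adjusted p = 1.75e-04). Irak1, a kinase of the IL-1 receptor, was lower in the other 3 lines than in 67NR, with changes of -1.03 in 4T1, -1.05 in 4T07 and -1.04 in 168FARN.

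Of 11 genes of IL-1 processing 8 were called by the F-test, 72.7%. Against 67NR, 0 were higher and 3 lower in 4T1, 4 and 2 in 4T07, and 3 and 1 in 168FARN. Casp1, the protease that matures IL-1β and IL-18, was 8.19, 7.92 and 8.13 in 4T1, 9.47, 9.37 and 9.98 in 4T07, 10.03, 9.94 and 10.18 in 168FARN and 8.91, 8.71 and 8.96 in 67NR. The 4T1 arrays were below all others, and its change in 4T1 minus 4T07 was -1.53 ± 0.17 (SE, adjusted p = 4.88e-04), while Il1b did not differ between them past the threshold (-0.19 ± 0.24, SE, adjusted p = 0.825). P2rx7, an ATP receptor upstream of caspase-1, was lower than in 67NR, with changes of -1.08 in 4T1 and -1.48 in 4T07.

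Of 12 partner cytokines and receptors without an interleukin symbol 7 were called by the F-test, 58.3%. Against 67NR, 2 were higher and 0 lower in 4T1, 2 and 3 in 4T07, and 2 and 4 in 168FARN. Tslp, an epithelial cytokine that uses the IL-7 receptor alpha chain, was 7.43, 7.64 and 7.62 in 4T1 and 10.85, 11.32 and 10.23 in 4T07, against 3.38, 3.48 and 2.70 in 168FARN and 3.05, 3.08 and 2.83 in 67NR, where it was in the background. Its change in 4T1 minus 4T07 was -3.24 ± 0.26 (SE, adjusted p = 4.18e-05). Osmr, a partner of gp130 in the oncostatin M receptor, rose by 1.84 ± 0.17 in 4T1 against 67NR (SE, adjusted p = 5.28e-06), while Csf2rb2, a beta chain of the IL-3 receptor, and Lif, a cytokine of the IL-6 type, were lower in 168FARN than in 67NR, with changes of -1.21 and -1.07.

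Markers of other cell types moved along with several of these results. Of 12 neutrophil markers, Cxcr2 not among them, 11 were higher in 4T07 and 7 in 4T1 than in 67NR, and their mean level per array was 7.88 to 8.11 in 4T1, 8.55 to 8.84 in 4T07, 6.38 to 7.0 in 168FARN and 6.05 to 6.79 in 67NR. No neutrophil marker was in the background in 4T1 or 4T07, and 2 were in 168FARN and 3 in 67NR. The part of neutrophils in the levels of Il8rb, Il1b and Il1rn, which these cells express, was not tested. Of 14 epithelial markers 13 were higher in 4T1 and 12 in 4T07 than in 67NR, with mean levels of 8.63 to 8.99 in 4T1, 7.89 to 9.24 in 4T07, 6.58 to 6.64 in 168FARN and 5.82 to 6.36 in 67NR. Against 168FARN, 11 of them were higher in 4T1 and 10 in 4T07. Il1a, Il1rl2 and Il24, all known in epithelia, were called higher in both 4T lines than in 168FARN. Il33, also a cytokine of epithelial cells, went the other way, with means of 7.75 in 4T1 and 8.10 in 4T07 against 11.73 in 168FARN. Il1a, Il1rl2 and Il24 were also called lower in 168FARN than in 67NR, where the epithelial marker mean was 6.61 in 168FARN and 6.02 in 67NR. The part of epithelial cells in these levels was not tested.

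The mean level of 13 fibroblast markers was highest in 168FARN. It was 9.06 to 9.41 in 4T1, 9.13 to 9.68 in 4T07, 10.12 to 10.17 in 168FARN and 8.36 to 8.78 in 67NR. Single markers were split: against 168FARN, 5 were higher and 7 lower in 4T1, and 4 higher and 7 lower in 4T07. In 168FARN against 67NR, 9 were higher and 0 lower. The part of fibroblasts in the levels of Il33 and Il7 was not tested. The 22 macrophage markers had means of 9.24 in 4T1, 9.06 in 4T07, 8.72 in 168FARN and 9.28 in 67NR. The 23 markers of T and NK cells, which carry Il2rb, Il21r and Il2ra, had means of 6.46 in 4T1, 6.87 in 4T07, 6.14 in 168FARN and 6.58 in 67NR, with 11 higher in 4T07 than in 168FARN. The mast cell, basophil and eosinophil markers averaged 5.63 in 4T1, 5.85 in 4T07, 6.63 in 168FARN and 6.75 in 67NR. The mean level of the B cell markers was 7.13, 5.34 and 7.22 on the arrays of 4T1, 6.58 to 7.99 in 4T07, 5.78 to 6.43 in 168FARN and 5.71 to 5.87 in 67NR, with 4T1 array 2 below all others. Dendritic cell markers averaged 7.07, 7.09 and 6.78 in 4T1, 4T07 and 168FARN and 6.82 in 67NR, and endothelial markers 8.10, 8.02 and 7.71 in 4T1, 4T07 and 168FARN and 8.52 in 67NR.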

How the data were processed

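RNA of 12 primary tumours was measured on Affymetrix mouse exon arrays, 3 arrays for each of the 4 lines. The deposited table holds a log2 signal for each probeset on each array; that scale follows from the range of the values. The authors' background correction, summarization and normalization are not given in the sources used here. Of the probesets 207232 carried 1 symbol and were used; 3882 with several and 16976 with none were not. 0 columns were left out. A gene's level is the median of at least 3 probesets. The test was limma (version 3.58.1; R 4.3.3; data.table version 1.17.8), a single linear model of all 12 arrays without covariates and with eBayes, and Benjamini-Hochberg adjustment over 15025 genes at 0.05. The exon test was diffSplice, with the splicing index beside it. The code was tested on simulated data. Arrays have no read depth; precision is set by their number.

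The interleukin genes and the pathway, marker and motif lists were chosen with earlier results of these data known. Per-array values were given for the genes called by the F-test, changed by at least 1 in a called pair and above background, up to the 20 with the widest line means, and per pair the 5 largest changes in each direction could be named, with up to 3 pathway genes per pair and direction. Further members were named by role. Alternatives were other summaries of the probesets, other normalizations, variance models and filters, the replicate number as a block, and leaving out each array. The numbers showed no clear pairing of the arrays. Arrays of different lines with the same number had correlations of their deviations from -0.09 to 0.19, over 0.1 in 3 of 18. For arrays with different numbers they ran from -0.16 to 0.22, over 0.1 in 2 of 36.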

Additional observations from a re-analysis of the deposited data

How the results depend on the processing

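The F-test called 33 to 40 interleukin genes over the alternatives, 36 in the main setting, and 5 to 8 set a line apart. Counts per pair were 14 to 23 in 168FARN against 67NR, 20 to 29 in 4T07 against 67NR, 16 to 28 in 4T1 against 67NR, 19 to 30 in 4T07 against 168FARN and 16 to 30 in 4T1 against 168FARN, each within 1.5 times the reported count except 16 (8 higher, 8 lower) in the last pair with 168FARN array 1 as the only one of its line, an alternative added after the data were seen that leaves 1 array in a group. In 4T1 against 4T07 the count of 3 was 5 with the mean of the probesets and 5 with dim probesets left out, and 1 to 5 on leaving out 1 array. The 31 called exon probesets became 47 with the gene filter at the 25th percentile, which tests 42 members, 18 by the splicing index, and 12 to 32 on leaving out 1 array. With the replicate block the F-test called 35, 6 set a line apart and 31 exon probesets were called. The pairs then had 19, 27 and 23 calls in 168FARN, 4T07 and 4T1 against 67NR. They had 28 and 26 in 4T07 and 4T1 against 168FARN, and 2 in 4T1 against 4T07. Of 12 arrays, 7 correlated best with an array of their own number. Each of 20 single genes was followed in 1 pair only, that of its largest called change, a choice that favours keeping the call. Of these 399 values over the alternatives, 398 kept direction and call, 0 reversed, and 1 lost its call: Il1f9 in 4T07 against 168FARN, given in the text. Calls of these genes in other pairs were not followed in that count, and several were lost on leaving out 1 array, as given above. On leaving out each array, 17 of 20 calls in 168FARN against 67NR, 17 of 27 in 4T07 against 67NR, 16 of 23 in 4T1 against 67NR, 21 of 28 in 4T07 against 168FARN, 18 of 27 in 4T1 against 168FARN and 1 of 3 in 4T1 against 4T07 were kept in all. With 3 arrays per line, and with 22 genes in the background of which 2 were called, a gene that was not called is not shown to be unchanged.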

Other observations

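Probesets that match several genes were outside the comparisons. The 5 probesets shared by Il22 and its near copy Iltifb had mean log2 signals of 4.63 in 4T1, 4.61 in 4T07, 4.52 in 168FARN and 4.60 in 67NR, with single arrays between 3.81 and 5.58. The 5 shared by Il28a and Il28b, the interferon lambda genes, had 5.79 in 4T1, 5.79 in 4T07, 5.60 in 168FARN and 5.38 in 67NR, with single arrays between 5.13 and 6.11. The members of each pair cannot be told apart by these probesets.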
